A study of Mus musculus with 6 samples.

Results

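The miR-15 and miR-16 seed family was followed in serum exosomes, the small membrane vesicles that cells release into the blood, of mice treated with vehicle or with OCExoInhib. Its members were taken as the panel entries named miR-15a, miR-15b, miR-16 and miR-497, 4 of the 380 named mouse miRNAs (microRNAs) on a quantitative PCR plate, and all 4 gave a signal in all 6 samples. Both groups of mice were studied 2 weeks after ACLT, read here as surgical cutting of the anterior cruciate ligament, which destabilises the joint and leads to osteoarthritis. Of the samples, 3 are labelled as vehicle treatment and 3 as OCExoInhib treatment. No label explains this name, which is known from the study as an agent that blocks exosome release by osteoclasts, the cells that resorb bone. The sources used here do not state the strain, age or sex of the mice. The design text speaks of equal amounts of exosomal miRNA pooled from 3 mice per group without saying whether the samples of a group are single mice or runs of a pool, so each p-value is relative to the spread of these samples alone, and that spread may be technical.

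miRNAs guide the silencing machinery to messenger RNAs mainly through their seed, the bases 2 to 8 from the 5′ end, so miRNAs with one seed share many targets. The miR-15 and miR-16 family is known for restraining the cell cycle and cell survival through targets such as cyclin D1, cyclin E1 and Bcl2, and for loss of the locus of miR-15a and miR-16 in chronic lymphocytic leukaemia. miR-16 is abundant in blood cells and plasma and is released when red cells lyse, and miR-497, with its neighbour miR-195, is known in bone for supporting the vessels that accompany bone formation.

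The panel sequences are shown because the members are alike in the seed, in capitals, and differ behind it. By the tests below, miR-15a and miR-16 were lower in OCExoInhib samples, while miR-15b and miR-497 did not pass.
miR-15a: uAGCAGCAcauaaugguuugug
miR-15b: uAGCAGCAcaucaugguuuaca
miR-16: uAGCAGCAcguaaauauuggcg
miR-497: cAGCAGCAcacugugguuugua
miR-195: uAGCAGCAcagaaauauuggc
miR-322: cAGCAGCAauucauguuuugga
miR-503: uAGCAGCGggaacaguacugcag
miR-103: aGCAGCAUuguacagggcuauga
miR-107: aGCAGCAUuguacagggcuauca
The first 6 of these are the panel entries with the seed of the members, and miR-195 and miR-322 had no threshold cycle in any sample. RefSeq lists 10 mature mouse miRNAs with this seed. miR-503 differs from it at the last seed base (A8G relative to miR-16, counted from the 5′ end), and miR-103 and miR-107 carry the same 7 letters shifted to bases 1 to 7. Compared base by base from the 5′ end, miR-15a and miR-15b were identical at 18 of 22 positions, with the substitutions A12C, G20A, U21C and G22A. miR-15a matched miR-16 at 16 positions and miR-497 at 17, and the least alike pair, miR-16 and miR-497, matched at 11. The ability of the PCR assays to separate such close sequences was not tested.

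The members come from 3 gene clusters. By matching the panel sequences to RefSeq's mature miRNAs (GRCm38.p6), miR-15a lies at chr14:61632075-61632096 on the minus strand, 117 bases from a copy of miR-16 at chr14:61631936-61631957 (Mir16-1), both within the span of the long noncoding RNA gene Dleu2. miR-15b lies at chr3:69009775-69009796 on the plus strand, 121 bases from the other copy of miR-16 at chr3:69009918-69009939 (Mir16-2), both within the span of Smc4, which encodes a condensin subunit. miR-497 lies at chr11:70234730-70234751 on the plus strand, 310 bases from miR-195. Mature miR-16 is the same molecule from both of its loci, so its level cannot be divided between the clusters of miR-15a and miR-15b.

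Values are threshold cycles (Ct), the PCR cycle at which a well's fluorescence passes a threshold. An early Ct means much template, and each cycle corresponds roughly to a doubling. A Ct was recorded in every sample for 123 named miRNAs and in no sample for 257. Tests covered the 115 with a Ct under 35 in at least 3 samples. The log2 level used below is the negative of the deposited normalized value, the Ct relative to the mean of wells P21, P22 and P23. The members' own Ct values ran from 23.584 to 32.776. All were thus under the limit of 35, which was set against late cycles, where few template molecules are left.

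Some samples of a group shared a fixed Ct offset in many wells, and miR-15a and miR-16 were among them. Vehicle 1 and vehicle 3 differed by 0.939 cycles, within 0.0015, in 17 of the 126 wells with a Ct (13.5%). OCExoInhib 1 and OCExoInhib 3 differed by 1.886 cycles in 10 wells (7.94%). The OCExoInhib samples shared 2 more such offsets (0.570 cycles between 1 and 2, and 1.316 between 2 and 3), which no member carried. The difference of miR-15a was 0.939 and 1.886 cycles, and that of miR-16 was 0.938 and 1.886. Only 8 miRNAs carried both offsets, and the other 6 were let-7e, miR-125b-5p, miR-133a, miR-145, miR-214 and miR-652. miR-15b differed by −0.928 and 1.258 cycles and miR-497 by 3.287 and 0.093, so neither carried an offset. The part of these offsets in the results was not tested. Values with samples 1 and 3 of each group averaged, a setting chosen after seeing the data, are given for the members' log2 differences and for the gaps between members.

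**Figure D1:**
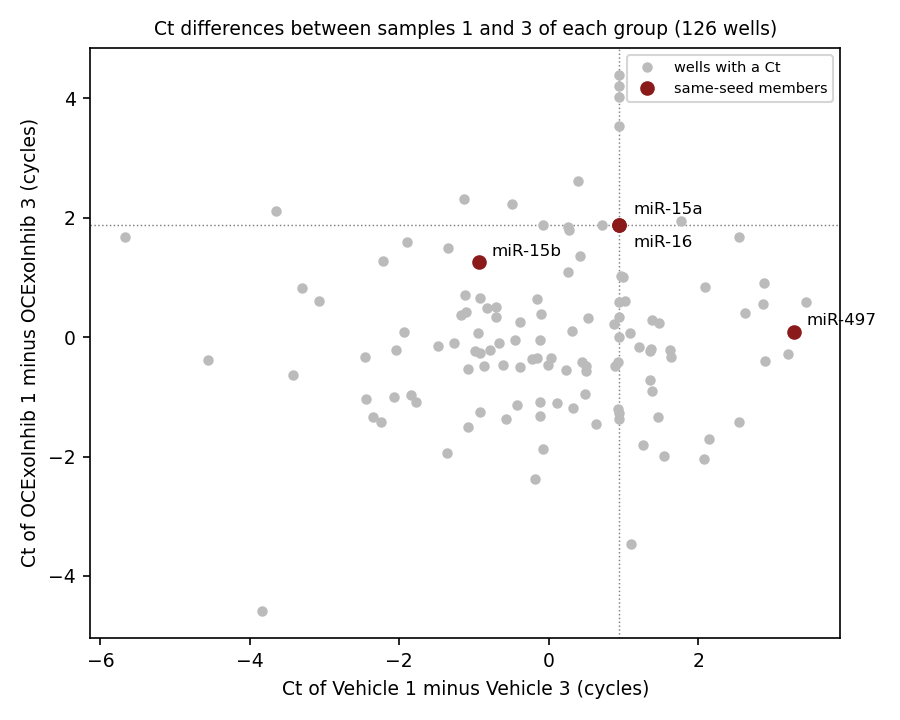
Ct of vehicle 1 minus vehicle 3 (horizontal axis, cycles) against Ct of OCExoInhib 1 minus OCExoInhib 3 (vertical axis, cycles) for the 126 wells with a Ct, with the members in dark red and dotted lines at the repeated differences of 0.939 and 1.886 cycles. miR-15a and miR-16 lie on the crossing of both lines, and miR-15b and miR-497 lie on neither.

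In the OCExoInhib samples, miR-16 was 42.4-fold and miR-15a 26.0-fold lower than in the vehicle samples, while miR-15b and miR-497 did not pass the test. Thus 2 of the 4 members fell and 0 rose, where 17.4% of the 115 tested miRNAs fell and 6.09% rose by limma at an adjusted p of 0.05. Being called and carrying an offset went together: 19 of the 20 miRNAs that fell and 3 of the 7 that rose carried at least 1 of the offsets, against 1 of the 88 that did not pass. Both members that fell carried 2 of the offsets, and neither of the other members carried any. The median log2 difference of the members was −2.76, against −0.54 for all tested miRNAs, and all 4 members lay below 0, as did 91 of the 115. In bulk exosome RNA, fewer vesicles with a miRNA and less of it per vesicle cannot be told apart.

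miR-16 had Ct values of 27.081, 23.584 and 26.143 in vehicle samples 1, 2 and 3, and of 31.212, 30.318 and 29.326 in OCExoInhib samples 1, 2 and 3. All OCExoInhib samples thus came up later than all vehicle samples, by at least 2.245 cycles, and vehicle 2 had the most miR-16. Relative to the wells P21 to P23 the log2 levels were 3.91, 6.99 and 5.05 in vehicle and −0.86, 0.31 and 0.28 in OCExoInhib samples. The means were 5.32 ± 1.55 and −0.092 ± 0.667 (SD, n = 3 each), and the groups did not overlap, which held for 20% of the tested miRNAs in this direction. The log2 difference was −5.41 (SE 0.88, 95% interval −7.27 to −3.54, limma adjusted p 0.000193), the sixth lowest of the 115. With vehicle 1 and 3 averaged, and OCExoInhib 1 and 3 averaged, it was −5.72 (SE 0.95, adjusted p 0.00679). The difference was −4.57 without vehicle 2 and −6.11 without vehicle 1, and it passed the threshold in both cases.

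miR-15a, the partner of miR-16 in the Dleu2 cluster, had Ct values of 28.167, 24.745 and 27.228 in the vehicle samples and of 32.202, 29.548 and 30.316 in the OCExoInhib samples. The groups again did not overlap, with a gap of 1.381 cycles, and vehicle 2 was again highest in level. OCExoInhib 2 held the most miR-15a of its group. The log2 levels were 2.83, 5.82 and 3.96 in vehicle and −1.85, 1.08 and −0.71 in OCExoInhib samples. The means were 4.20 ± 1.51 and −0.50 ± 1.48 (SD, n = 3 each), and the difference was −4.70 (SE 0.95, 95% interval −6.73 to −2.67, limma adjusted p 0.00108). It was −4.71 (SE 1.14, adjusted p 0.0292) with samples 1 and 3 of each group averaged. The fall of miR-15a was lost in 2 of 24 alternative settings. It did not pass with quantile normalization (−3.43, adjusted p 0.0917) or with limma's linear model without moderated variances (−4.70, adjusted p 0.0958). Leaving out single samples moved it to −3.89 (without vehicle 2), −4.02 (without OCExoInhib 1), −5.39 (without vehicle 1) and −5.49 (without OCExoInhib 2), all past the threshold.

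miR-15b, which differs from miR-15a by 4 bases and is made from the Smc4 cluster together with a copy of miR-16, had Ct values of 31.647, 32.192 and 32.575 in vehicle and of 32.204, 31.771 and 30.946 in OCExoInhib samples. Its log2 levels were −0.65, −1.62 and −1.38 in vehicle and −1.85, −1.14 and −1.34 in OCExoInhib samples. The groups overlapped, and its SD of 0.505 in vehicle samples was the smallest of the 4 members there. The log2 difference was −0.23 (SE 0.75, limma adjusted p 0.871), with a 95% interval of −1.81 to 1.36 that reaches from 3.51-fold lower to 2.57-fold higher. That interval ends above the one of miR-15a, but a change of miR-15b within it was not detectable with these samples. With samples 1 and 3 of each group averaged it was −0.050 (limma adjusted p 0.969). Its sign depended on the scaling: the difference was 0.95 with global mean normalization, 0.50 with raw Ct and 2.30 (adjusted p 0.0297) with each sample centred on its median.

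miR-497, the member made beside miR-195, had Ct values of 32.776, 29.941 and 29.489 in vehicle and of 30.353, 31.865 and 30.260 in OCExoInhib samples. Its log2 levels were −1.78, 0.63 and 1.70 in vehicle and −0.003, −1.24 and −0.66 in OCExoInhib samples. Vehicle 1 held the least of all 6 samples and vehicle 3 the most, so the vehicle samples (SD 1.79, n = 3) spanned the whole OCExoInhib group (SD 0.617, n = 3). The log2 difference was −0.82 (SE 0.91, 95% interval −2.75 to 1.12, limma adjusted p 0.866). With samples 1 and 3 of each group averaged it was −1.08 (limma adjusted p 0.666). It was −1.80 (adjusted p 0.201) without vehicle 1 and −0.055 without vehicle 3, and it turned to 0.36 with global mean normalization and 1.71 (adjusted p 0.0794) with median centring. Its partner miR-195 had no Ct, so the cluster as a whole was not measured.

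**Figure D2:**
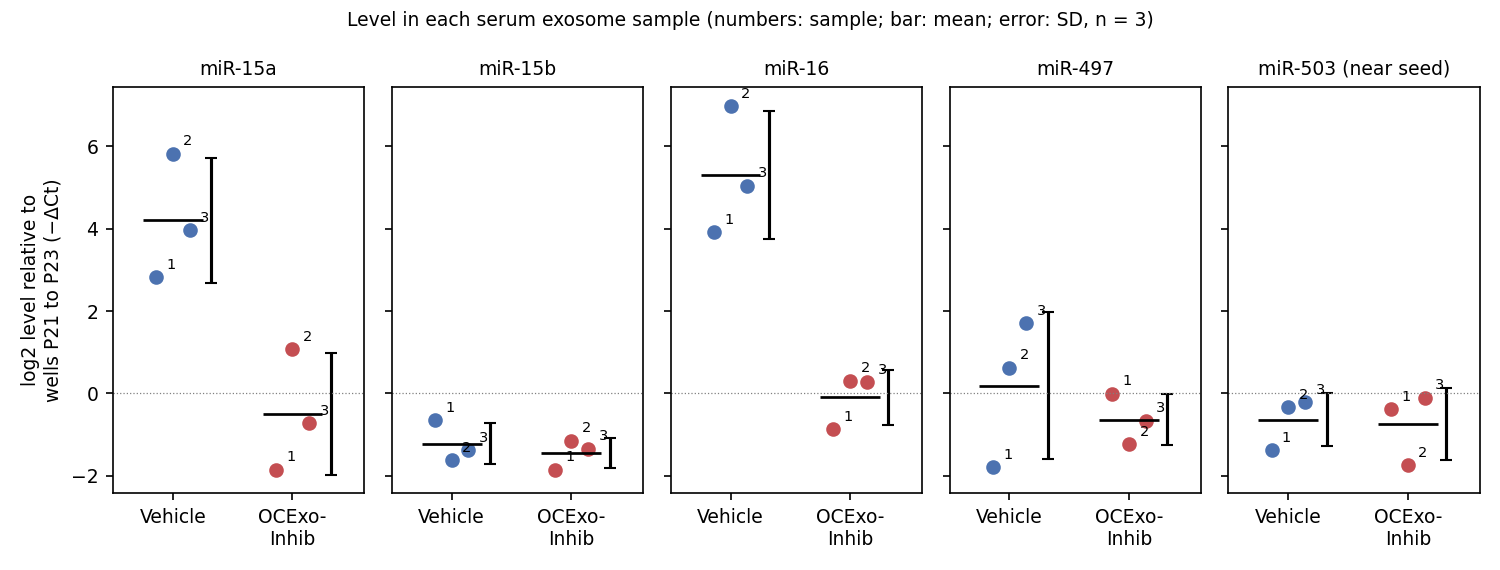
Log2 level relative to wells P21 to P23 (vertical axis) of the 4 members and of miR-503 in each vehicle (blue) and OCExoInhib (red) sample, numbered by sample, with the mean as a bar and the SD of 3 samples as error. For miR-15a and miR-16 all vehicle points lie above all OCExoInhib points, while the points of miR-15b, miR-497 and miR-503 overlap.

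The spread of the members among themselves also differed between the groups. Within a vehicle sample the Ct values of the 4 members spanned 5.70, 8.61 and 6.43 cycles in samples 1, 2 and 3, with miR-16 first in each. Within an OCExoInhib sample they spanned 1.85, 2.32 and 1.62 cycles, and the first member was miR-497, miR-15a and miR-16 in turn. The mean Ct values of the members lay between 25.6 (miR-16) and 32.1 (miR-15b) in vehicle samples and between 30.3 (miR-16) and 31.6 (miR-15b) in OCExoInhib samples. Ct values of different assays are not levels on one scale, since assays amplify with different efficiency, so the narrowing describes cycles. It is the same measurement as the falls of miR-15a and miR-16 and no further support for them. Nor is it particular to the family. Over the panel, miRNAs that fell had mean Ct values of 23.8 to 28.5 in vehicle samples. In OCExoInhib samples theirs were 30.2 to 31.0, except miR-107 (32.5). Those that rose had 35.3 to 36.9 in vehicle and 29.3 to 29.9 in OCExoInhib samples. Some of the OCExoInhib means were equal between assays. That of miR-16 was 30.2853, as was that of miR-125b-5p. A mean of 30.2683 was found for miR-151-3p, and again for miR-145 and for let-7e. Wells P21 to P23, to which the levels are relative, had a mean Ct of 30.1933 in these samples. Why the called miRNAs ended in so narrow a range, near these wells and partly with equal means, was not tested.

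**Figure D3:**
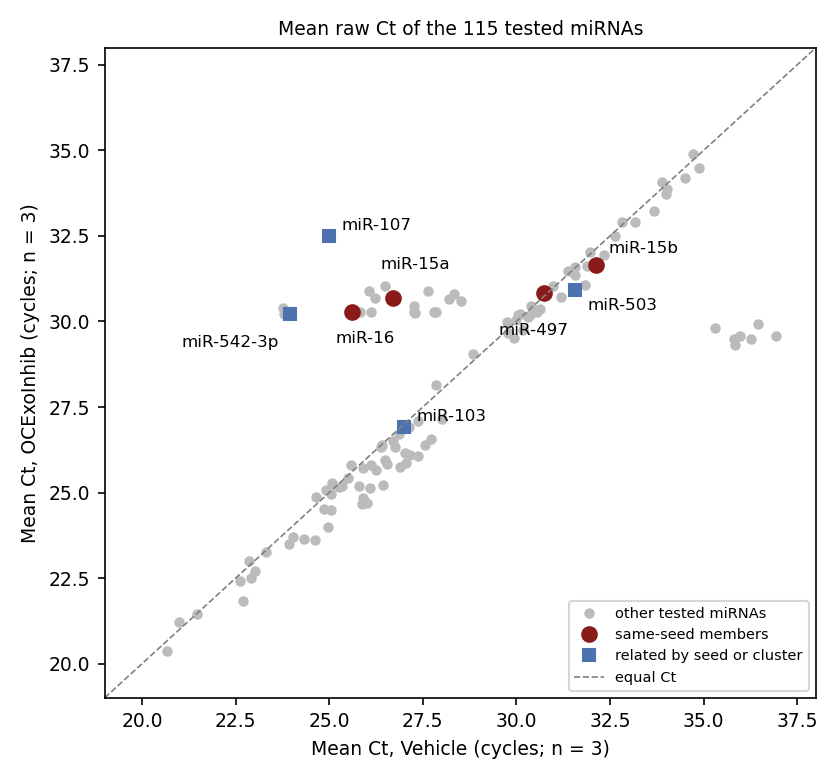
Mean raw Ct in vehicle (horizontal axis, cycles, n = 3) against mean raw Ct in OCExoInhib samples (vertical axis, cycles, n = 3) for the 115 tested miRNAs, with the members in dark red and the miRNAs related by seed or cluster as blue squares. miR-15b, miR-497, miR-503 and miR-103 lie near the dashed line of equal Ct, and miR-16 and miR-15a lie above it, at OCExoInhib means of 30.3 and 30.7.

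Whether members changed unequally was asked with the Ct of one member minus that of another in the same sample, a difference on which the normalizer wells have no effect. All 6 pairs were compared by exact two-sided permutation tests, whose smallest possible p with 3 samples against 3 is 0.1, so no pair could pass 0.05. The measured miR-16 may come from either of its loci, so no gap with it belongs to a single cluster. miR-15b came up 4.566, 8.608 and 6.432 cycles after miR-16 in vehicle samples. In OCExoInhib samples it came up 0.992, 1.453 and 1.620 cycles after miR-16. The mean gap was 6.54 ± 2.02 and 1.36 ± 0.325 cycles (SD, n = 3 each), a difference of −5.18 cycles without overlap (exact p 0.1, adjusted 0.15 over the 6 pairs). It was −5.67 with samples 1 and 3 of each group averaged, and with single samples left out it ranged from −6.17 to −4.14 cycles. Of the 6 gaps, this one changed by the most cycles.

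miR-15a came up 1.086, 1.161 and 1.085 cycles after miR-16 in the vehicle samples. In OCExoInhib samples 1 and 3 the gap was 0.990 cycles in each, and in OCExoInhib 2 miR-15a came up 0.770 cycles before miR-16. The difference of −0.71 cycles (exact p 0.1, adjusted 0.15) had no overlap between groups but rested on OCExoInhib 2: without that sample it was −0.121, and with samples 1 and 3 averaged, which gives OCExoInhib 2 more weight, −1.01. The near-equal gaps of samples 1 and 3 in each group follow from the offsets that both miRNAs share.

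The next 3 pairs set a member that fell against one that did not pass. miR-15a minus miR-15b was −3.480, −7.447 and −5.347 cycles in vehicle and −0.002, −2.223 and −0.630 in OCExoInhib samples, a difference of 4.47 cycles (exact p 0.1, adjusted 0.15). miR-16 minus miR-497 differed by 4.59 cycles (exact p 0.1, adjusted 0.15), also without overlap. miR-15a minus miR-497 differed by 3.88 cycles (exact p 0.2, adjusted 0.24), and its groups overlapped, since OCExoInhib 2 (−2.317) lay below vehicle 3 (−2.261). miR-15b and miR-497, the members that did not pass, differed by −0.59 cycles between the groups (exact p 0.7). With samples 1 and 3 averaged these gaps differed by 4.66, 4.65, 3.63 and −1.03 cycles, in the same order.

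**Figure D4:**
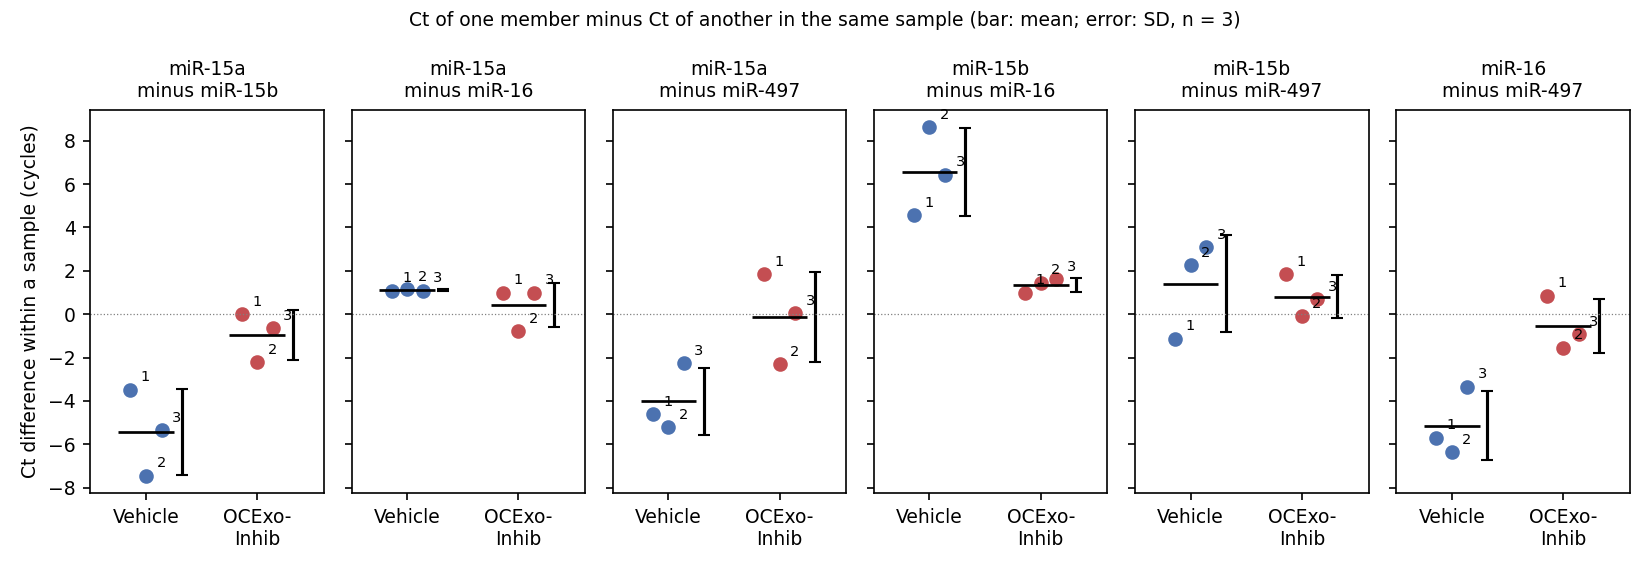
Ct of one member minus Ct of another in the same sample (vertical axis, cycles) for the 6 pairs, in vehicle (blue) and OCExoInhib (red) samples, numbered by sample, with the mean as a bar and the SD of 3 samples as error. The gap between miR-15b and miR-16 is 4.566 cycles or more in vehicle samples and at most 1.620 cycles in OCExoInhib samples, and miR-15a minus miR-16 stays near 1 cycle except in OCExoInhib 2.

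Among relatives of the family, too, some miRNAs fell and others did not pass. miR-503, with a seed one base away and known as a repressor of the osteoclast receptor RANK, had log2 levels of −1.37, −0.34 and −0.21 in the vehicle samples and of −0.38, −1.74 and −0.10 in the OCExoInhib samples, which interleave. Its difference was −0.10 (SE 0.79, 95% interval −1.78 to 1.58, limma adjusted p 0.922), with overlapping groups. It is made on the X chromosome, 256 bases from miR-322, and of the 7 panel entries listed as their further neighbours only miR-542-3p had a Ct. miR-542-3p fell (log2 difference −7.02, SE 0.78, limma adjusted p 1.75e-05). Of the 20 miRNAs that fell, it alone carried no offset. Among the miRNAs with the shifted seed, miR-107 fell (−8.25, SE 1.38, limma adjusted p 0.000193). Its Ct values in OCExoInhib samples 1, 2 and 3 were 32.361, 36.996 and 28.148, so OCExoInhib 2 lay past 35. It also carried the offset between vehicle 1 and vehicle 3. miR-103, which differs from miR-107 by the single substitution G22C (miR-103 first), did not pass (−0.64, SE 0.90, limma adjusted p 0.866). Of the 16 further family names listed, 3 were on the panel, and miR-503 alone of them had a Ct.

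The miRNAs whose log2 levels were most like a member's over the 6 samples differed between the members. For miR-16 they were miR-151-3p (Pearson r 0.998), miR-148a (0.987) and miR-21 (0.985), and for miR-15a miR-214 (0.987), miR-151-3p (0.966) and miR-21 (0.965). All of these fell, and all carried a repeated Ct offset. This follows largely from the selection. Correlation over both groups favours fallen miRNAs for a fallen member, and 19 of the 20 fallen miRNAs carried an offset. For miR-497 they were miR-103 (0.986), miR-92a (0.971) and miR-206 (0.956), and for miR-15b miR-30c (0.934), miR-325 (0.825) and miR-191 (0.713), none of which passed the test or carried an offset. Among the members, miR-15a and miR-16 correlated by 0.972, miR-15a and miR-15b by 0.203, and miR-15b and miR-497 by −0.646. These values describe 6 samples in 2 groups that share one normalizer, and no p is given.

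Since miR-16 is known from red cells, markers of blood and other cells were set beside it. Of 6 erythrocyte entries on the panel, miR-144 and miR-92a had a Ct, and the defining miR-451 and miR-486 had none. The log2 of their summed level ran from 4.85 to 7.84 in vehicle and from 5.35 to 6.47 in OCExoInhib samples, so the groups overlapped, and miR-144 did not pass (log2 difference −0.56, SE 0.82, limma adjusted p 0.866). For platelets, 3 of 6 had a Ct (miR-21, miR-199a-3p and miR-223), and miR-126-3p had none. Their sums were 3.81 to 5.79 in vehicle and 0.029 to 0.897 in OCExoInhib samples. miR-223 came up too late to enter the tests. In vehicle samples miR-21 had a mean Ct of 26.1 and miR-199a-3p of 31.4, so the sum there mostly follows miR-21. For osteoclast-linked miRNAs, 4 of 5 had a Ct (miR-21, miR-148a, miR-214 and the untested miR-223), and miR-31 had none. Their sums were 6.02 to 9.19 in vehicle and 1.11 to 2.24 in OCExoInhib samples. In vehicle samples miR-148a had a mean Ct of 23.8 and miR-214 of 28.2, so the sum there mostly follows miR-148a. miR-21, in both lists, fell (−4.87). In the platelet list miR-199a-3p did not pass (−0.81, limma adjusted p 0.866), and in the osteoclast list miR-148a (−7.14) and miR-214 (−3.20) fell as well. The part of platelet and osteoclast miRNAs in the results was not tested. Leukocyte sums (3 of 6 with a Ct, 3.62 to 5.58 and 3.67 to 5.15) and liver sums (2 of 3, 5.53 to 7.46 and 4.61 to 6.40) overlapped between groups. Within the liver list miR-194 fell (−5.27, limma adjusted p 0.000296) and miR-192 did not pass (−0.16, adjusted p 0.900).

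Per the file headers the normalizer was a spike-in, and the files do not name the RNA in wells P21 to P23. These wells came up at Ct 30.9 ± 0.318 in the vehicle group and at Ct 30.2 ± 0.531 in the OCExoInhib group (mean and SD of 3 samples). The difference was −0.725 cycles (exact two-sided permutation p 0.2). The wells shift every member alike. With P21, P22 or P23 alone the log2 difference of miR-16 was −5.69, −5.89 and −4.65, and that of miR-15a −4.98, −5.18 and −3.94, all past the threshold. That of miR-15b was −0.51, −0.71 and 0.53, and it did not pass with any single well. miR-16 passed in all 24 alternative settings tried, some of which overlap and some of which leave its own values unchanged. Its log2 differences ran from −6.11 to −2.88 and its limma adjusted p from 1.29e-06 to 0.0440. The smallest p came with P21 alone, where limma gave all 4 members the same SE of 1.05. That p thus does not measure the spread of miR-16 itself. The largest p came from the linear model without moderated variances. The smallest fall was that with median centring. In the authors' deposited table the folds of vehicle over OCExoInhib were 42.4 for miR-16, 26.0 for miR-15a, 1.76 for miR-497 and 1.17 for miR-15b.

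**Figure D5:**
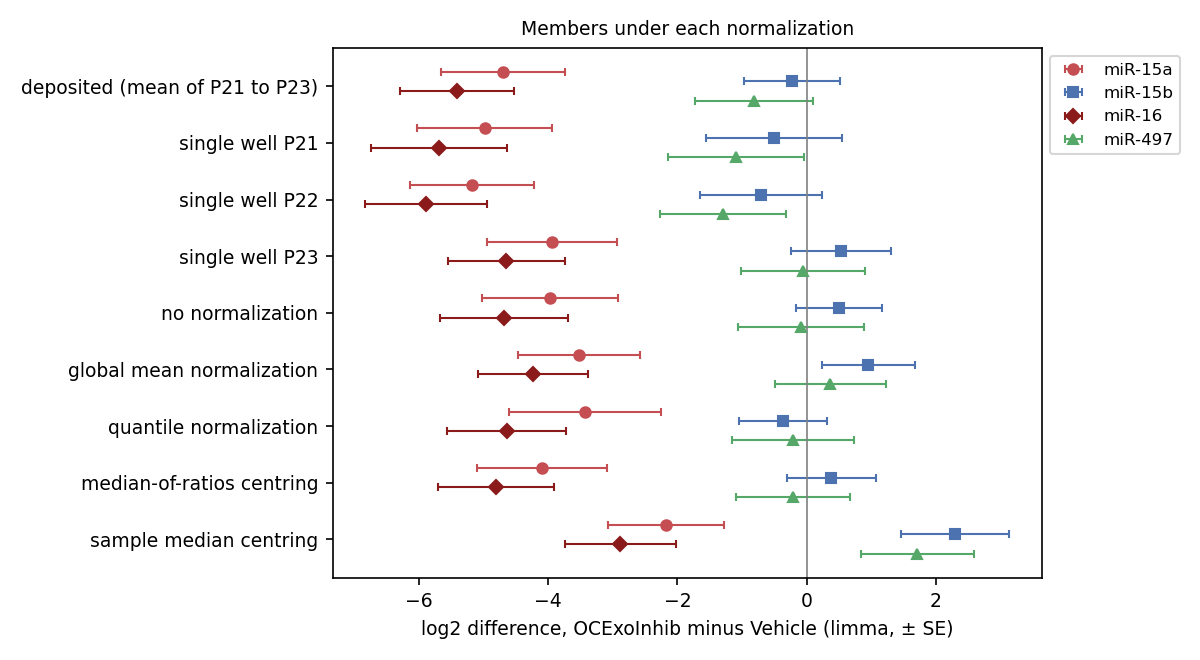
Log2 difference of OCExoInhib minus vehicle (horizontal axis, limma estimate with SE) for the 4 members under the deposited normalization and 8 other normalizations (rows). miR-15a and miR-16 lie below 0 in every row, between −2.17 and −5.89, and miR-15b and miR-497 move from one side of 0 to the other.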

How the data were processed

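Serum exosome miRNAs of 3 vehicle and 3 OCExoInhib samples were measured by SYBR Green quantitative PCR with a mouse exosome profiling kit for 40 cycles, per the labels' protocols. The deposited raw values are threshold cycles, listed as a score without normalization. Per the file headers, the second table was normalized by the authors to a spike-in. These deposited log2 values are differences in cycles and equal raw Ct minus the mean of wells P21, P22 and P23. The authors' deposited fold table is a ratio of vehicle over OCExoInhib. The sources used here do not state how the fluorescence threshold was set or when a well was left empty. Replicates number 3 per group, which limits the precision.

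The vehicle and OCExoInhib groups were compared by two-sided moderated linear models (limma 3.58.1, R 4.3.3) over the 115 miRNAs, with Benjamini-Hochberg adjustment over all of them. Moderated variances draw on the spread of all tested miRNAs, so such a p-value does not rest on the spread of a single miRNA alone. The test was tested on simulated data with independent errors per sample. Those data hold no shared Ct offsets, so they cannot show how the test behaves with such offsets. Exact permutation tests used scipy 1.17.1 in Python 3.11.15. Panel sequences were matched to RefSeq (GRCm38.p6), with 292 of 380 identical to a mature entry. Named miRNAs are the members, the listed relatives, cluster neighbours and cell markers, and the 3 most correlated tested miRNAs per member. After subtraction of group means, samples 1, 2 and 3 of both groups correlated by 0.0587, 0.0177 and 0.117 with their namesakes, too weakly to treat the numbers as pairs. The members and lists were chosen with earlier results of these data known. Alternatives were other normalizations, Ct limits, variance models, the sample number as a block, left-out samples and averaged samples.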

Additional observations from a re-analysis of the deposited data

How the results depend on the processing

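The averaging of samples 1 and 3 in both groups, and the exclusion of other miRNAs that carry a repeated Ct offset, were chosen after seeing the data. Of 24 alternatives, miR-16 kept its call in 24 and miR-15a in 22. miR-15a was lost with quantile normalization (−3.43) and the unmoderated linear model (−4.70). The alternatives are not independent. Leaving out the filter on late cycles and using a Ct limit of 38 gave the same fit over 123 miRNAs. miR-15b turned to 0.95 with global mean, 0.38 with median-of-ratios centring, 0.50 with no normalization, 0.53 with well P23 alone and 2.30 with sample median centring. miR-497 turned to 0.36 with global mean and 1.71 with sample median centring. Sample median centring moves the median of all tested miRNAs from −0.54 to 1.98. Leaving out each sample gave ranges of −6.11 to −4.57 for miR-16, −5.49 to −3.89 for miR-15a, −0.43 to 0.056 for miR-15b (above 0 without vehicle 1) and −1.80 to −0.055 for miR-497. For miR-15b minus miR-497 it gave −1.85 to 0.253 cycles (above 0 without vehicle 3). The wells' difference was 0.035 cycles with P23 alone.

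Over the whole panel 27 miRNAs changed (20 lower, 7 higher), or 24 to 27 with samples left out. The count was 16 with quantile normalization (9 lower, 7 higher) and 15 with the unmoderated model (11 lower, 4 higher). It was 68 with sample median centring (11 lower, 57 higher). Without other miRNAs that carry an offset it was 7 of 94 (3 lower, 4 higher). Of the 21 left out, 20 were themselves among the 27. The 3 lower included miR-15a and miR-16, which stayed in that fit with unchanged values. That setting therefore cannot show how their falls depend on the offsets. With the sample number as a replicate block the log2 differences of the members were the same, with adjusted p 0.0142 for miR-16 and 0.00844 for miR-15a, and 25 miRNAs changed. The cause of the other shifts was not tested. Ct limits and late cycles leave the members' own values as they are, since all lie under 35, and act only through the other miRNAs in the fit.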
